A study of Mus musculus with 8 samples.

Results

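The genes described here are the *Zfp* genes of the mouse, whose symbol is Zfp followed by a number and which encode zinc-finger proteins. They were measured by RNA sequencing in NMuMG cells, an epithelial line from the normal mouse mammary gland in which TGF-β starts an epithelial to mesenchymal transition. All entries of the count table with such a symbol were taken, except *Zfp36* (an RNA-binding protein of another kind), provided that their mean raw count over the 8 libraries was at least 50. The members were thus chosen by their mean level over all groups together, which no comparison below uses. This gave 219 members out of 37310 genes in the table. The study asked which genes respond to TGF-β and to loss of *Lnc-Nr6a1*, a long non-coding RNA gene. The 4 groups, each with 2 libraries, were control NMuMG cells without treatment, control cells with 10 ng/ml TGF-β1 for 2 h, knockout cells without treatment, and knockout cells with the same treatment. In the knockout cells a fragment between guide sites in the promoter and in the first exon of *Lnc-Nr6a1* had been deleted with CRISPR-Cas9 and single cells grown into clones. How many clones stand behind the libraries is not given in the sources used here, so loss of the gene and differences between clones cannot be told apart. The 2 libraries of a group are biological replicates by the study's methods, and since the labels do not say that they came from separate cultures, p-values measure only the spread between these libraries.

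The C2H2 zinc finger is a short loop of the protein held by a zinc ion, and rows of such fingers read DNA sequence. A large group of these proteins also carries a KRAB domain near the start of the protein. That domain calls in TRIM28 and, through it, the histone methyltransferase SETDB1, so that the bound DNA becomes packed and silent, and the known targets are mostly transposable elements and imprinted genes. The KRAB genes lie in clusters that arose by repeated duplication, and in the mouse several of these clusters are on chromosomes 7, 13 and 17. Other proteins with a Zfp symbol are activators, parts of chromatin complexes, RNA-binding proteins, ribosome factors or ubiquitin ligases, and the symbol marks no single family.

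The mean raw count of the members, the value that chose them, ran from 50.5 to 4237 with a median of 181. All 219 were among the 13028 genes that passed the filter on low counts. Just inside the minimum were *Zfp619* (mean count 50.5), *Zfp825* (51.5) and *Zfp28* (53.1), and just outside it were *Zfp937* (48.6), *Zfp382* (48.5) and *Zfp185* (48.5). Per kb of exon, the median level of the members was 5.22 CPM (a count divided by the TMM-scaled total of its library). The members with the highest level per kb were *Zfp706* at 43.2 CPM per kb, *Zfp207*, a spindle protein, at 42.5, *Zfp106*, an RNA-binding protein, at 40.7, *Zfp146*, which consists almost wholly of fingers, at 29.3, and *Zfp740* at 28.3. Of these 5 only *Zfp146* was called, in the comparison of the genotypes after TGF-β.

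A KRAB A box was found in the translated coding sequence of 109 members and not in the other 110. The members with a KRAB box had a median of 12 finger matches (3 to 33) and the others a median of 6 (0 to 29), and no finger match was found in 5 of the others. The KRAB members were the lower group, with a median of 4.06 CPM per kb against 6.36. Their transcripts held less G and C, with a median GC content of 42.7% against 50.5% for the other members and 50.6% for all tested genes with a value. Chromosomes 7, 13 and 17 held 65 of the 109 KRAB members and 34 of the 110 others. Since duplicated genes can share reads, the transcript of each member with the longest coding sequence was compared word by word. In 177 members no stretch of 75 bases, the read length, occurred exactly in a protein-coding transcript of another gene. In 8 members more than 10% of the words were so shared, above all in *Zfp97* (69.8%, with *Zfp960*) and *Zfp932* (40.4%), whose values are therefore uncertain. Near matches and genes that code for no protein were not searched, so other shared reads could not be seen. In 33 members the exons overlap a gene on the other strand, and whether reads were counted by strand is not given in the sources used here.

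The libraries held 4297832 to 13574397 counts. The targeted gene, listed as *Gm13507*, had 3 and 14 counts in untreated control cells, 25 and 35 after TGF-β, 11 and 7 in the untreated knockout-labelled libraries and 0 and 0 in the treated ones, so before treatment its counts overlapped between the genotypes. A count of 0 in these libraries allows a level of up to 0.245 and 0.238 CPM. Markers of immune, endothelial and fat cells summed to at most 5.45, 0.847 and 0.220 CPM in any library. Of 10 epithelial markers 6 had a mean of at least 3 counts, and the list summed to 5873 to 10940 CPM, whereas *Esrp1*, *Cldn3* and *Cldn7* were at 0 in all libraries. Of 8 mesenchymal markers 4 had a mean of at least 3 counts, and the list summed to 2629 to 3902 CPM, with *Thy1* at 0. In bulk RNA, fewer cells that express a gene and fewer transcripts in each cell cannot be told apart.

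Without treatment, more members had a lower than a higher level in the knockout-labelled libraries. In this comparison the median log2 fold change of the 219 members was -0.21 (quartiles -0.44 and 0.04), and 154 of them lay below 0, while the median of all tested genes was 0.02. The KRAB members were at -0.32 with 82 of 109 below 0, and the others at -0.09 with 72 of 110 below 0. Of single members 1 was called lower and none higher, which is 0.457% of the members, against 1.83% of all 13028 genes (0.798% lower and 1.03% higher). A gene was called when the Benjamini-Hochberg adjusted p of edgeR's quasi-likelihood test over all genes was under 0.05 and the log2 fold change was beyond 0.5 in either direction. With no filter on low counts 8 members were called lower (3.65% against 3.69% of all genes). With only the 4 libraries of the comparison 10 were called lower and 1 higher (5.02% against 6.48%). Without replicate 2 of the untreated control cells the median of the members was -0.09. No test was made of the members as a group.

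In the treated groups, the shift of the KRAB members differed between libraries of the same group by as much as between groups. Against each gene's mean over the 8 libraries, the median log2 deviation of the KRAB members was 0.04 and 0.29 in the untreated control libraries and -0.19 and -0.06 in the untreated knockout-labelled libraries, which do not overlap. After TGF-β it was -0.14 and 0.48 in the control libraries, against 0.05 and -0.45 in the knockout-labelled libraries, which overlap widely. Over all 219 members the treated libraries were at -0.09 and 0.28 in the control group and at 0.01 and -0.21 in the knockout-labelled group, which overlap too. The other members stayed between -0.09 and 0.10 in all 8 libraries. Genes outside the *Zfp* group whose transcripts had a GC content below 44% stood on the same side of 0 as the KRAB members in 6 of the 8 libraries. In the order above these genes were at -0.03 and 0.15, -0.19 and -0.12, 0.02 and 0.36, and 0.04 and -0.18, so that replicate 1 of the untreated and of the treated control cells made the exceptions. Genes with a GC content of at least 56% were at 0.09 and -0.11, 0.16 and 0.18, -0.07 and -0.45, and 0.04 and 0.20.

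**Figure D1:**
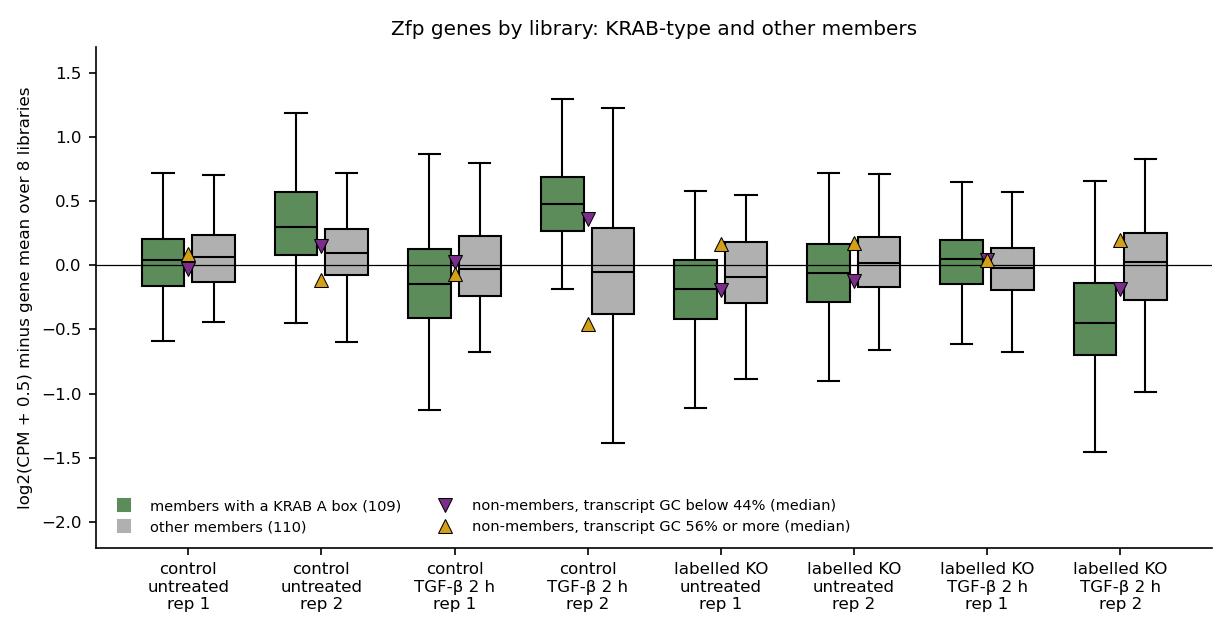
Level of the Zfp genes in each library, as log2(CPM + 0.5) minus the gene's mean over the 8 libraries (boxes, quartiles; lines, to the farthest gene within 1.5 box heights; green, 109 KRAB members; grey, 110 other members), with the medians of non-member genes of low and high GC content as triangles. The green box is highest in replicate 2 of the treated control cells, with a median of 0.48, and lowest in replicate 2 of the treated knockout-labelled libraries, with a median of -0.45, and the purple triangles lie on the same side of 0 in both.

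Read over GC content in the untreated comparison, the members followed the other genes and lay below them in each of 6 bins. In the untreated comparison of the genotypes, the 35 members with less than 40% GC had a median log2 fold change of -0.54 and the other 441 genes of that content -0.29. Between 40 and 44% GC the values were -0.27 for 48 members and -0.19 for 1382 other genes. At 56% and more, 36 members were at 0.02 and 2392 other genes at 0.19. When the GC trend of each library was given to the edgeR model as an offset, an alternative chosen after the data were seen, the median of all members was -0.09, that of the KRAB members -0.09 and that of the others -0.09. With this offset, the KRAB members of untreated cells were thus no lower than the other members, and after TGF-β they were at -0.16 against -0.03. The part of GC content in the shift was not tested beyond this.

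**Figure D2:**
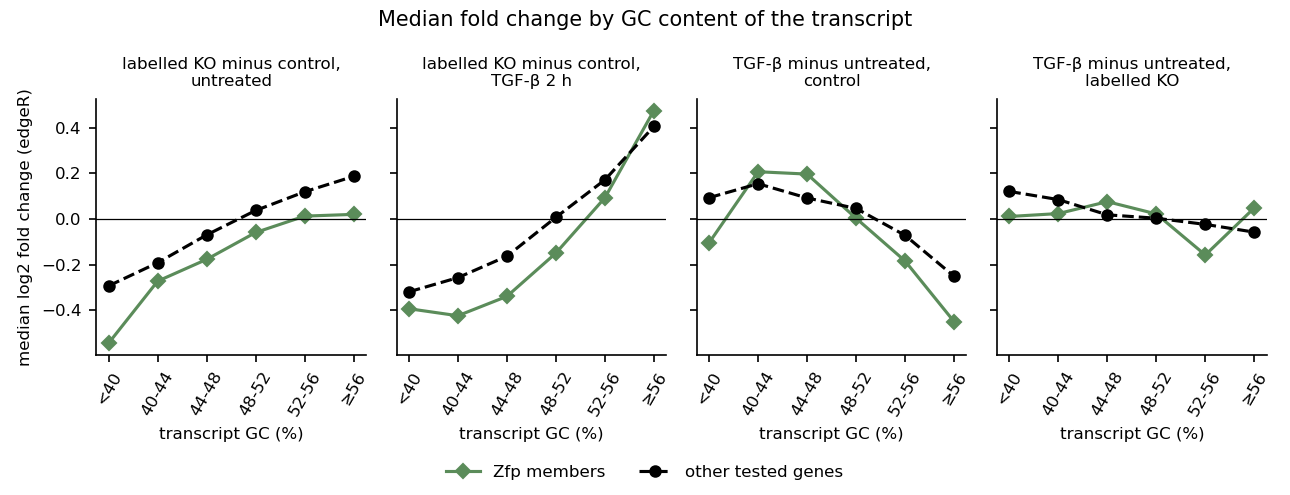
Median log2 fold change (edgeR) of Zfp members and of the other tested genes in 6 bins of transcript GC content, for the 4 comparisons. In the untreated comparison of the genotypes both lines rise from left to right, from -0.54 to 0.02 for the members, and after TGF-β the members go from -0.39, with a dip to -0.42 in the next bin, to 0.47.

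Chromosome 7 carried 50 members, the most of any chromosome, and 46 of them lay below 0 in the untreated knockout-labelled libraries, with a median log2 fold change of -0.44. The other 893 tested genes of chromosome 7 were lower as well, at -0.24 with 74.4% below 0. Along the chromosome the medians of these other genes ran from -0.17 to -0.29 in windows of 20 Mb, with no window at or above 0, and after TGF-β from 0.02 to -0.27. In single libraries, the chromosome 7 members deviated by 0.21 and 0.22 in untreated control cells and by -0.28 and -0.17 in the knockout-labelled libraries, and after TGF-β by 0.12 and 0.36 against -0.11 and -0.19, so the genotypes did not overlap at either time. With the GC offset the chromosome 7 members were at -0.47 (47 of 50 below 0) and the other genes of the chromosome at -0.32. After TGF-β the members of chromosome 7 were at -0.38 and the other genes at -0.12, and at -0.37 and -0.25 with the GC offset.

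Chromosome 17 carried 31 members, 25 of them KRAB members, and there the members and their neighbours parted. The members were at -0.40 in the untreated comparison and the other 598 tested genes of the chromosome at 0.08. The 25 KRAB members were at -0.54 with 24 below 0, and the 6 others at 0.22 with 1 below 0. The GC offset brought the chromosome 17 members to -0.10 and the 25 KRAB members among them to -0.16, with 20 below 0. The other genes of the chromosome were then at 0.01. The 138 members on chromosomes other than 7 and 17 had a median of -0.08, and of -0.00 with the GC offset, with 69 of 138 below 0. Chromosome 3, whose other genes had a median of -0.34, held only 4 members, among them *Zfp639*, and chromosome 8, whose other genes had the highest such median of the autosomes that carry at least 4 members, 0.18, held 17.

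**Figure D3:**
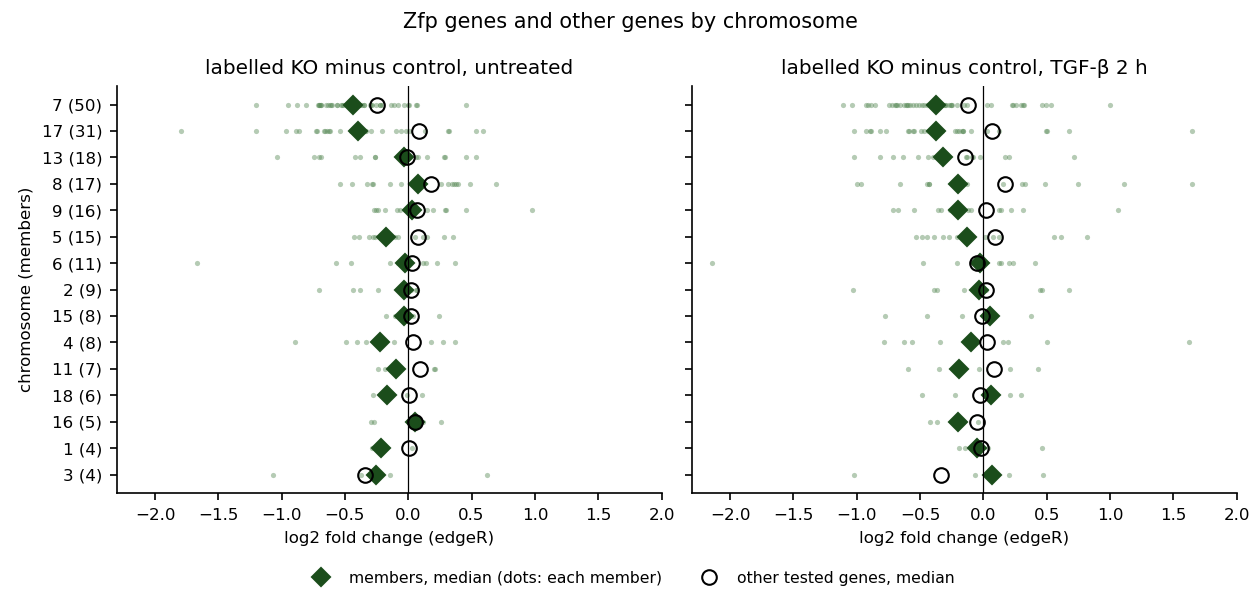
Log2 fold change (edgeR) of each Zfp member (dots) with their median (diamonds) and the median of the other tested genes (circles) on each chromosome with at least 4 members, untreated at left and after TGF-β at right. On chromosome 7 both medians lie left of 0 in both panels, and on chromosome 17 only the members do, at -0.40 and -0.37.

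The member called lower in untreated cells was *Zfp422* (chromosome 6, 116574034 to 116579017, minus strand, build NCBIM37), the mouse counterpart of human ZNF22 and a factor described in tooth development. It was at 24.1 and 26.5 CPM in untreated control cells, 28.6 and 35.0 CPM after TGF-β, 7.72 and 8.11 CPM in the untreated knockout-labelled libraries and 6.85 and 7.55 CPM in the treated ones. All 4 knockout-labelled libraries were thus below all 4 control libraries, with a wide gap. The level was 3.19-fold lower without treatment (log2 fold change -1.67, SE 0.22, adjusted p = 0.00604, edgeR) and 4.41-fold lower after TGF-β (-2.14, SE 0.21, adjusted p = 8.12e-04, edgeR). TGF-β itself did not change it past the test in control cells (0.33, SE 0.20) or in those labelled knockout (-0.14, SE 0.22). The untreated call was lost without replicate 2 of the untreated control cells (adjusted p = 0.0695), without replicate 1 of the knockout-labelled libraries (0.0751) and without replicate 2 (0.0861), and the treated call held under all 14 alternatives (adjusted p from 3.16e-12 to 0.0171). The transcript has a GC content of 44.99%, and with the GC offset the log2 fold changes were -1.57 and -1.94. *Zfp422* is on chromosome 6, where the other tested genes had medians of 0.03 and -0.05.

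*Zfp422* was the only member called in both comparisons of the genotypes (100% of the members called lower without treatment and 9.09% of those after TGF-β). Of all tested genes, 95 were called lower in both (91.3% and 11.1%). The promoter of *Zfp422* is shown, from 250 bases before to 50 bases after the start of the RefSeq gene on GRCm38.p6 (chr6:116628652-116628951, minus strand, written 5′ to 3′ along the gene). Capitals mark CAGAC, the core letters of a SMAD site, on either strand. SMAD proteins carry the TGF-β signal to DNA.
Zfp422: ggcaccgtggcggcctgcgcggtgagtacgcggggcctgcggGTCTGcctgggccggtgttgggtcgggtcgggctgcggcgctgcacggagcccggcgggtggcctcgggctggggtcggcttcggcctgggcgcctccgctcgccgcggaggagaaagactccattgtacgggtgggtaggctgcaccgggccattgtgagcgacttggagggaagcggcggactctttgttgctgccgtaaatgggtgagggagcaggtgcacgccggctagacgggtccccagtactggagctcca
Its GC content is 71.0%, and the capitals occur 1 time.

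After TGF-β, the knockout-labelled libraries differed from control cells in 18 members, 11 lower and 7 higher, which is 8.22% of the members against 15% of all genes (6.57% lower and 8.47% higher). With no filter on low counts 33 members were called, 15.1% against 13.8% of all genes, so that the order of these shares depends on the filter. The median log2 fold change of the members was -0.22, with 150 of 219 below 0, and the median of all tested genes was -0.01. The KRAB members stood at -0.39 with 98 of 109 below 0, and 5 were called lower and none higher. Of the other members, at a median of 0.03, 6 were called lower and 7 higher. These values leaned on single libraries: the median of the members was 0.02 without replicate 2 of the treated control cells and -0.36 without replicate 1. The number of members called was 43 without that replicate 1, 9 without replicate 2 and 3 without replicate 2 of the treated knockout-labelled libraries. These are 19.6%, 4.11% and 1.37% of the members, beside 20.7%, 9.0% and 3.57% of all genes then tested. The 3 members were *Zfp422*, *Zfp523* and *Zfp568*.

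Of the 11 members called lower after TGF-β, 8 were on chromosome 7 (*Zfp111*, *Zfp143*, *Zfp74*, *Zfp607*, *Zfp568*, *Zfp180*, *Zfp954* and *Zfp146*), which is 16% of the 50 members there, and on that chromosome 112 of the other 893 tested genes were called lower too. *Zfp111*, a KRAB member with 14 finger matches, was at 22.4 and 25.1 CPM in treated control cells and 11.6 and 10.4 CPM in the treated knockout-labelled libraries, with no overlap. Its log2 fold change was -1.11 (SE 0.21, adjusted p = 0.0106, edgeR), a call lost in 2 of 14 alternatives, and without treatment -0.69 (SE 0.22), which was not called. *Zfp143*, an activator of small nuclear RNA genes and of many other promoters, was at 34.2 and 49.6 CPM against 22.1 and 18.8 CPM. Here too the groups did not overlap, though the control replicates stood far apart, and the log2 fold change was -1.04 (SE 0.22, adjusted p = 0.0150, edgeR). The call of *Zfp143* was lost in 3 of 14 alternatives, the fit of only the 4 libraries included, and its value ran from -1.26 to -0.74.

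*Zfp568*, a KRAB repressor of a placental promoter of *Igf2*, was at 147 and 127 CPM in treated control cells and 71.3 and 92.2 CPM in the treated knockout-labelled libraries, and at 85.2 and 90.2 against 59.3 and 59.5 CPM without treatment. The knockout-labelled libraries were lower at both times, with log2 fold changes of -0.75 (SE 0.16, adjusted p = 0.0171, edgeR) and -0.56 (SE 0.17, not called). The treated call of *Zfp568* was lost in 2 of 14 alternatives. *Zfp639*, on chromosome 3, was at 13.96 and 19.4 CPM against 9.29 and 7.07 CPM (log2 fold change -1.02, SE 0.29, adjusted p = 0.0415, edgeR). Its difference was as large without treatment, at -1.07 (SE 0.31), where the adjusted p was 0.130. The treated call was lost in 8 of 14 alternatives. Among these were the fit of only the 4 libraries, fits without 1 library and the replicate block (adjusted p = 0.0619, edgeR). The GC offset also ended the call (-0.82, adjusted p = 0.0567, edgeR). *Zfp74* and *Zfp607*, both KRAB members, were at -0.89 (SE 0.26) and -0.86 (SE 0.25). *Zfp607* kept its call in 1 of 14 alternatives and *Zfp74* in 3, and both lost it with the GC offset (-0.64 and -0.71, adjusted p = 0.110 and 0.0601, edgeR). The remaining members called lower, *Zfp367*, *Zfp180*, *Zfp954* and *Zfp146*, were between *Zfp367* at -0.81 and *Zfp146* at -0.58. Over the 14 alternatives these calls were lost in 3 for *Zfp367*, 4 for *Zfp180*, 8 for *Zfp146* and 13 for *Zfp954*, which kept its call with the GC offset alone.

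The 7 members called higher after TGF-β in the knockout-labelled libraries were all without a KRAB box, and their transcripts had a GC content of 54.4 to 61.1%, whereas the 11 called lower had 43.7 to 50.7%. Over all genes called in this comparison, the median GC content was 55.6% for those called higher and 47.3% for those called lower. Unlike those of the members, their ranges overlapped widely, at 39.9 to 66.9% and 34.6 to 66.2%. *Zfp703*, a co-repressor of the breast epithelium that is amplified in luminal breast tumours, was at 19.6 and 8.68 CPM in treated control cells and at 40.9 and 48.1 CPM in the treated knockout-labelled libraries. The groups lay apart, and the log2 fold change was 1.65 (SE 0.34, adjusted p = 0.0138, edgeR), against 0.38 (SE 0.35) without treatment. *Zfp703* is on chromosome 8, and with the GC offset its value was 1.27 (adjusted p = 0.00741, edgeR). Its size rested on single libraries, at 2.37 without replicate 1 and 1.19 without replicate 2 of the treated control cells. The call was lost with only the 4 libraries (adjusted p = 0.0661, edgeR) and without replicate 2 of the treated knockout-labelled libraries (adjusted p = 0.0656, edgeR).

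*Zfp523*, the counterpart of human ZNF76 and a close relative of *Zfp143*, was at 6.18 and 7.20 CPM in treated control cells and at 21.4 and 20.6 CPM in the treated knockout-labelled libraries. It was 3.13-fold higher there (log2 fold change 1.65, SE 0.26, adjusted p = 0.00503, edgeR), with no overlap, and the call held under all 14 alternatives. *Zfp362* was at 2.62 and 3.28 CPM against 8.64 and 9.54 CPM (1.62, SE 0.33, adjusted p = 0.0138, edgeR), a call lost in 2 of 14 alternatives. *Zfp395*, a factor that responds to low oxygen, was at 2.72 and 2.22 CPM against 5.71 and 5.56 CPM (1.18, SE 0.30, adjusted p = 0.0308, edgeR), a call that was lost in 7 of 14 alternatives, the replicate block included (adjusted p up to 0.121). *Zfp395* also stood higher without treatment, at 13.01 and 17.9 CPM against 7.72 and 8.30 CPM, a difference that was not called (0.96, SE 0.28, adjusted p = 0.140). *Zfp651*, *Zfp513* and *Zfp358* were higher by 1.07 (SE 0.28), 0.82 (SE 0.24) and 0.75 (SE 0.21), and the GC offset ended these 3 calls. Over the 14 alternatives the call of *Zfp651* was lost in 9, that of *Zfp513* in 10 and that of *Zfp358* in 11.

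**Figure D4:**
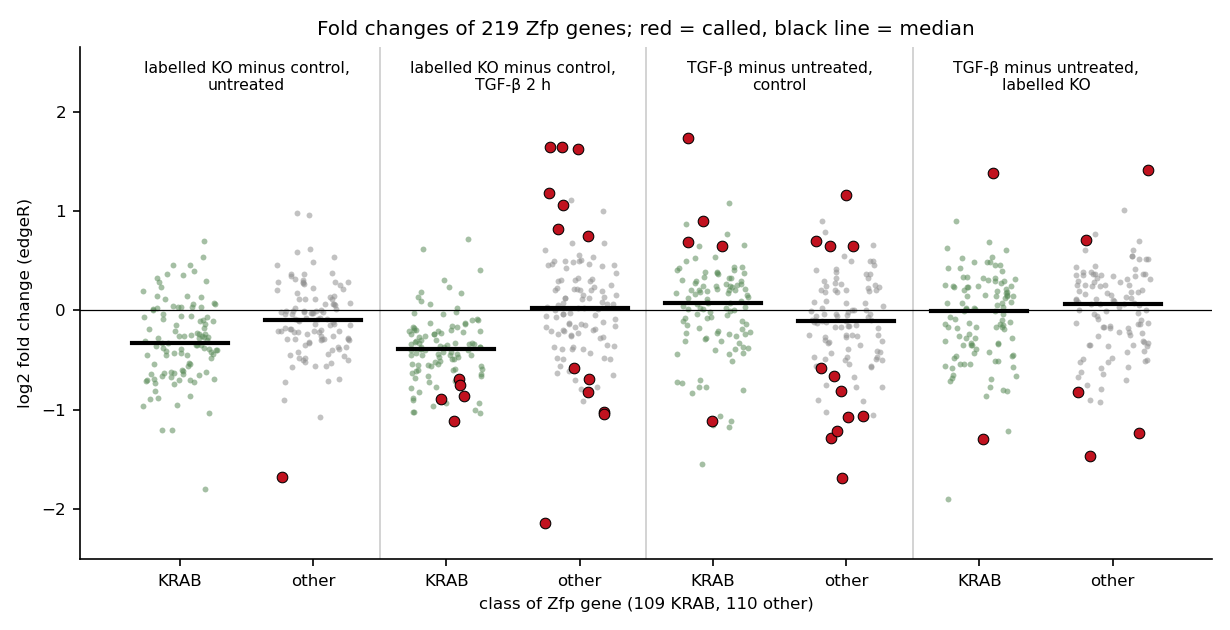
Log2 fold change (edgeR) of each of the 219 Zfp genes in the 4 comparisons, split into KRAB and other members (dots; red, called; black lines, medians). The median of the KRAB members lies below 0 in both comparisons of the genotypes, at -0.32 and -0.39, and the red dots above 0 in the treated one belong to members without a KRAB box.

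After 2 h of TGF-β members were called in both directions. In control cells 9 members were called lower and 8 higher, which is 7.76% of the members against 9.16% of all genes (4.47% lower and 4.69% higher). With no filter on low counts 35 members were called there, 16% against 9.88% of all genes, so that the order of these shares depends on the filter. In the knockout-labelled libraries 4 were called lower and 3 higher, 3.20% against 6.82% of all genes (2.57% lower and 4.25% higher). The medians of the members were -0.03 and 0.02 beside 0.02 and 0.00 for all tested genes, and the first moved to 0.16 without replicate 1 and to -0.19 without replicate 2 of the treated control cells. The KRAB members were at 0.08 in control cells and at -0.00 in those labelled knockout. These comparisons share no library, and 3 members were called lower in both (33.3% of those in control cells and 75% of those in the knockout-labelled libraries), namely *Zfp395*, *Zfp251* and *Zfp692*, and 3 were called higher in both (37.5% and 100%), namely *Zfp451*, *Zfp281* and *Zfp867*. Of all tested genes, 160 were called lower in both (27.4% and 47.8%) and 349 higher in both (57.1% and 63.0%). In control cells the counts fell to 0 lower and 0 higher without replicate 1 of the untreated cells and to 0 and 2 without replicate 2, while calls over all genes fell from 9.16% to 1.05% and 2.28%. In the knockout-labelled libraries they were 0 lower and 1 higher without untreated replicate 2 or without treated replicate 2, and calls over all genes fell from 6.82% to 1.27% and 2.09%. Over the 14 alternatives the 17 calls in control cells were lost in 1 to 11 each (median 7), and the 7 calls in the knockout-labelled libraries in 0 to 9 (median 3).

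*Zfp451* (chromosome 1, 33817317 to 33871440, minus strand, as for the genes that follow on build NCBIM37), a SUMO ligase known as a brake on SMAD-driven transcription, rose in both genotypes. It was at 88.4 and 110 CPM in untreated control cells and 234 and 212 CPM after TGF-β, and at 77.8 and 93.3 CPM and 214 and 244 CPM in the knockout-labelled libraries. All treated libraries stood far above all untreated ones, by 1.17 on the log2 scale in control cells (SE 0.17, adjusted p = 0.00423, edgeR) and by 1.42 in the knockout-labelled libraries (SE 0.17, adjusted p = 0.00187, edgeR). The first call was lost without replicate 1 of the untreated control cells (adjusted p = 0.0666), and the other held under all 14 alternatives.

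*Zfp867* (chromosome 11, 59274699 to 59285976, minus strand), a KRAB member with 10 finger matches, rose the most among the members called in control cells. It was at 8.56 and 11.5 CPM in untreated and 29.2 and 37.6 CPM in treated control cells, and at 8.82 and 8.24 CPM and 18.99 and 25.3 CPM in the knockout-labelled libraries. The rise was 3.33-fold in control cells (log2 fold change 1.74, SE 0.25, adjusted p = 0.00425, edgeR) and 2.60-fold in those labelled knockout (1.38, SE 0.26, adjusted p = 0.0145, edgeR). *Zfp281* (chromosome 1, 138521478 to 138526630, plus strand), a factor of pluripotent cells that also takes part in the epithelial to mesenchymal transition, went from 64.2 and 62.4 to 91.5 and 114 CPM and from 51.1 and 58.1 to 93.9 and 85.4 CPM. The rises of *Zfp281* were alike in size, 0.70 (SE 0.16) and 0.71 (SE 0.16), with adjusted p = 0.0285 and 0.0298 (edgeR), and each call was lost in 6 of 14 alternatives.

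*Zfp395* (chromosome 14, 65977513 to 66017767, plus strand) fell the most among the members called, from 7.72 and 8.30 to 2.72 and 2.22 CPM in control cells and from 13.01 and 17.9 to 5.71 and 5.56 CPM in the knockout-labelled libraries. Treated and untreated libraries did not overlap within a genotype, and the log2 fold changes were -1.69 (SE 0.31) and -1.46 (SE 0.28), with adjusted p = 0.0123 and 0.0159 (edgeR). In control cells the call of *Zfp395* was lost in 3 of 14 alternatives, the fit of only the 4 libraries included. In the knockout-labelled libraries it was lost in 4 of 14, each a fit without 1 library of that comparison. *Zfp251* (chromosome 15, 76682578 to 76701865, minus strand), a KRAB member, went from 25.7 and 26.9 to 13.03 and 11.2 CPM and from 27.8 and 34.0 to 14.8 and 10.5 CPM. It was 2.16-fold and 2.45-fold lower (adjusted p = 0.0206 and 0.0113, edgeR). *Zfp692* (chromosome 11, 58120571 to 58128129, plus strand), a factor of gluconeogenic promoters in liver, was 1.75-fold and 1.76-fold lower (adjusted p = 0.0388 and 0.0431, edgeR), from 19.5 and 17.2 to 10.6 and 10.4 CPM and from 21.8 and 20.9 to 12.5 and 11.8 CPM. In control cells the call of *Zfp692* was lost in 11 of 14 alternatives, the replicate block, the fit of only the 4 libraries and every fit without 1 library included. With the GC offset it was lost there (-0.56, adjusted p = 0.1004, edgeR) and held in the knockout-labelled libraries (-0.76, adjusted p = 0.0418, edgeR). In the latter it was lost in 9 of 14 alternatives, among them no filter on low counts, the replicate block and the fit of only the 4 libraries, with adjusted p up to 0.242.

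*Zfp367* was called in the knockout-labelled libraries only, which does not show that the response differed. It went from 44.5 and 58.3 to 23.9 and 20.2 CPM there (-1.23, SE 0.19, adjusted p = 0.00641, edgeR) and from 59.6 and 64.1 to 42.4 and 35.0 CPM in control cells (-0.67, SE 0.19, adjusted p = 0.0544). With the GC offset *Zfp367* was called in control cells too (-0.77, adjusted p = 0.0273, edgeR), as it was with DESeq2, with no filter on low counts and without replicate 1 of the treated control cells. The other members named in control cells were *Zfp213* (-1.28, SE 0.30), *Zfp523* (-1.21, SE 0.26), *Zfp219* (-1.07, SE 0.23) and *Zfp444* (-1.06, SE 0.24), which fell, and *Zfp954* (0.90, SE 0.21), *Zfp90* (0.68, SE 0.17) and *Zfp410* (0.65, SE 0.16), which rose. *Zfp213*, *Zfp444* and *Zfp523*, like *Zfp692*, lost the call with the GC offset, which kept 13 of the 17 calls in control cells. Over all 14 alternatives *Zfp213* and *Zfp444* lost the call in 7, *Zfp410* in 9 and *Zfp90* in 10. In control cells the 9 members that fell had a median GC content of 57.9% and the 8 that rose 49.0%, beside 55.7% and 49.7% for all genes called in these directions.

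**Figure D5:**
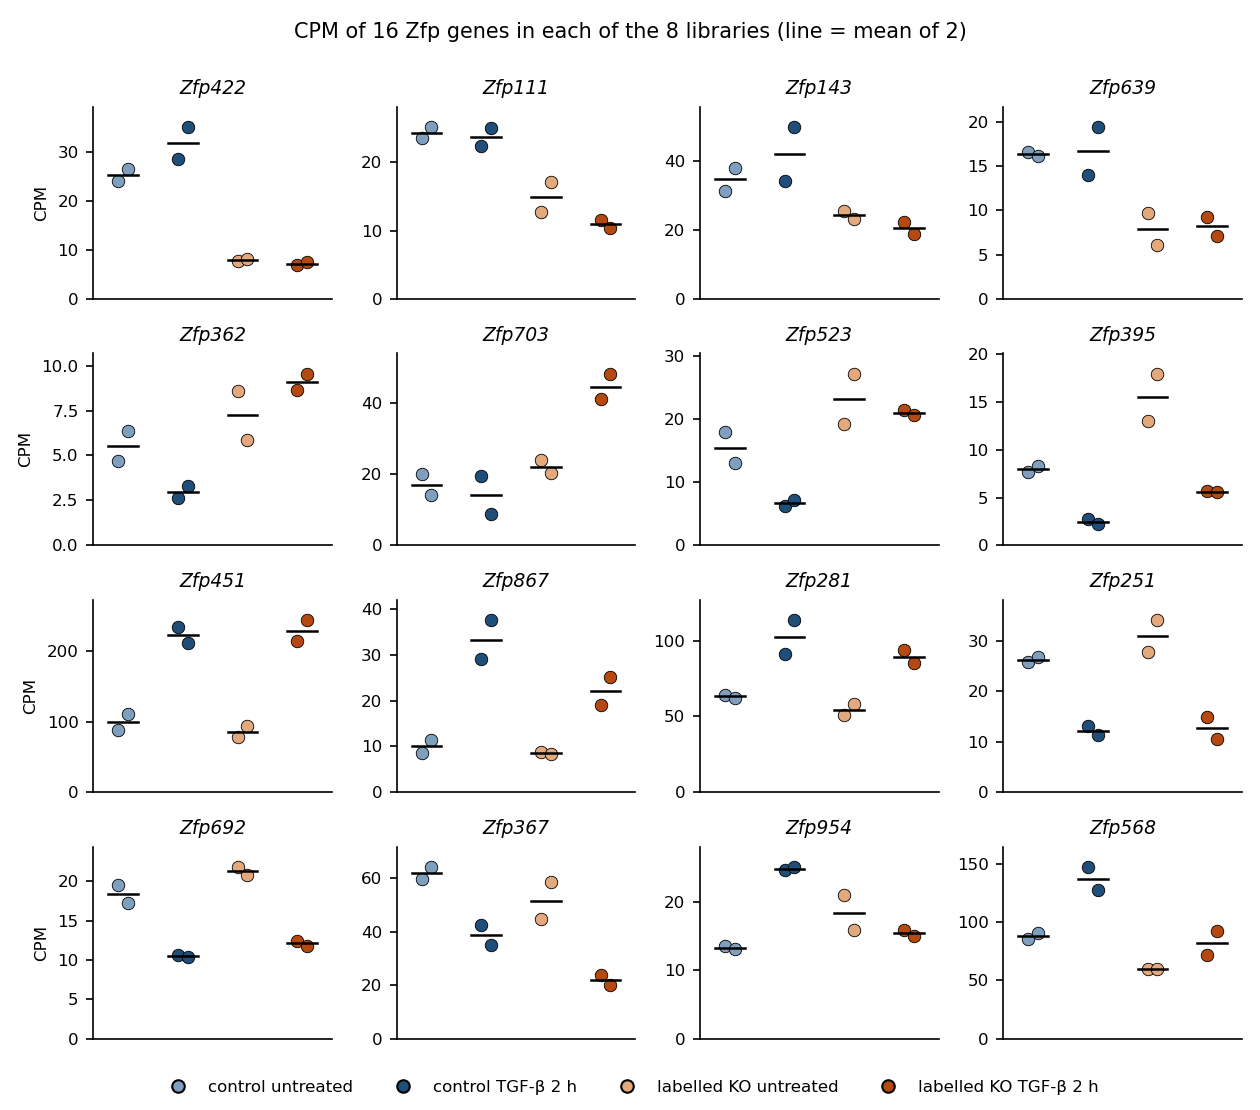
CPM of 16 Zfp genes in each of the 8 libraries (dots) with the mean of the 2 libraries of a group (lines), each panel with its own axis from 0. In the panel of *Zfp422* the 4 knockout-labelled libraries lie at 6.85 to 8.11 CPM and the 4 control libraries at 24.1 to 35.0 CPM, and in those of *Zfp451* and *Zfp867* all treated libraries lie above all untreated ones.

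Promoters are shown for the members that moved with TGF-β in both genotypes and have an entry in RefSeq (no entry was given for *Zfp395* and *Zfp251*), so that the letters can be read beside the responses. All run from 250 bases before to 50 bases after the start on GRCm38.p6, 5′ to 3′ along the gene, with CAGAC on either strand in capitals. *Zfp451* is at chr1:33814546-33814845 (minus strand), *Zfp281* at chr1:136624651-136624950 (plus strand), *Zfp867* at chr11:59472425-59472724 (minus strand) and *Zfp692* at chr11:58306819-58307118 (plus strand).
Zfp451: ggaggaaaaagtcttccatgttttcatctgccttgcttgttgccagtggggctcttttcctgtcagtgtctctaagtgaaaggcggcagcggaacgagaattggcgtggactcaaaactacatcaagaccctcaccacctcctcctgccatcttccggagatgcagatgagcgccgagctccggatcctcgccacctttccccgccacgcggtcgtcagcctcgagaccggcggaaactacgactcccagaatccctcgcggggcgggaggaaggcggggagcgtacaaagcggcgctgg
Zfp281: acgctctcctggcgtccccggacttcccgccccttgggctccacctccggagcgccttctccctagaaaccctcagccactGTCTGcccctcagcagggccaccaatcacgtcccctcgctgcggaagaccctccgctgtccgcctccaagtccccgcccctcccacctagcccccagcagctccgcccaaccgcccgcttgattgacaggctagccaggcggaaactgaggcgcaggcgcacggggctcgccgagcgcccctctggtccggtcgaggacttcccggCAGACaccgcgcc
Zfp867: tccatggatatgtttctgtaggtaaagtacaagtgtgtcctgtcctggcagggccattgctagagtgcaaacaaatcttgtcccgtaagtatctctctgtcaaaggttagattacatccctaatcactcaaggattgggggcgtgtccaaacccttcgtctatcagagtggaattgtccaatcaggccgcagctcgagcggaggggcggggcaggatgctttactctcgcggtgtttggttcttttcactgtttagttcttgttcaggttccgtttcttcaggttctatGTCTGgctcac
Zfp692: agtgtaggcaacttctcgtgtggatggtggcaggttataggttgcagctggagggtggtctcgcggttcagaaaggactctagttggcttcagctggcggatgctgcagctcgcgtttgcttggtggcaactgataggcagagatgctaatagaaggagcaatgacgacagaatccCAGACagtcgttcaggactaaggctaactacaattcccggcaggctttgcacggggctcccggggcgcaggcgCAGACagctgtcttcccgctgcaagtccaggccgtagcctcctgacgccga
CAGAC occurred 2 times in the promoters of *Zfp281* and *Zfp692*, 1 time in that of *Zfp867* and not in that of *Zfp451*. Among all 32851 promoters of this length 49.6% hold CAGAC, and among the 220 entries that match 176 of the members 48.2% do. TGANTCA, the AP-1 site, was in none of the 5 promoters shown, in 7.81% of all promoters and in 5.0% of those of the members. GTCTAGAC, the SMAD palindrome, was in 0.213% and 0.455%. Both strands were searched, and the palindrome shares the letters AGAC with CAGAC, so these motifs are not independent.

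Whether the response to TGF-β differed between the genotypes was tested with the interaction term. No member and no gene of 13028 passed it (0%, edgeR), while 1134 genes and 13 members had an unadjusted p under 0.05, and DESeq2 called 25 genes and no member. With no filter on low counts 211 of 20463 genes passed (1.03%), among them 1 member, *Zfp703* (0.457% of the members). The smallest p among the members was that of *Zfp954*, a KRAB member on chromosome 7. It was at 13.5 and 13.1 CPM in untreated and 24.6 and 25.1 CPM in treated control cells, and at 20.9 and 15.8 and then 15.9 and 15.02 CPM in the knockout-labelled libraries. It passed the test in control cells only, and the 2 responses differed by -1.14 (SE 0.29, adjusted p = 0.444, edgeR). *Zfp90* followed with -0.82 (SE 0.24) and *Zfp523* with 1.06 (SE 0.36), then *Zfp846* with -0.97 (SE 0.35) and *Zfp513* with 0.92 (SE 0.34), and none passed adjustment.

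By role, 4 of 7 genes tied to TGF-β or BMP signalling or to epithelial differentiation were among the members, and *Zfp451* and *Zfp281* rose with TGF-β in both genotypes, while *Zfp703* differed between the genotypes after TGF-β. *Zfp217*, a breast cancer gene, was at 30.5, 27.3, 31.8 and 37.7 CPM (means of untreated and treated control cells, then of untreated and treated knockout-labelled libraries) and was not called. Of 17 DNA-binding or chromatin factors 15 were members. In control cells, where 9.16% of all genes were called, *Zfp219*, a partner of SOX9, and *Zfp652* fell with TGF-β and *Zfp410* rose. None of the 15 was called after TGF-β in the knockout-labelled libraries, where 6.82% of all genes were. *Zfp143* was lower in the treated knockout-labelled libraries than in treated control cells, a comparison that called 15% of all genes. The call of *Zfp652* was lost in 10 of 14 alternatives. *Zfp652* overlaps *Phospho1* on the same strand and 2 genes on the other, which limits what its count can show. The known target of *Zfp410*, *Chd4*, did not pass in any comparison, with log2 fold changes of -0.19 (SE 0.14) in control cells and -0.01 (SE 0.14) in the knockout-labelled libraries after TGF-β.

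Of 13 genes with roles in RNA, translation, ubiquitin or mitosis 12 were members, and only *Zfp259* (*Zpr1*, which binds a translation elongation factor) was called, as higher in control cells given TGF-β, from 81.3 and 77.3 to 128 and 120 CPM (0.65, SE 0.16, adjusted p = 0.0343, edgeR), where 9.16% of all genes were called. The call was lost in 7 of 14 alternatives, the replicate block and the fit of only the 4 libraries included. In the knockout-labelled libraries it was 0.55 higher (SE 0.16, adjusted p = 0.0679). *Zfp598*, which marks stalled ribosomes, *Zfp622*, a factor of the large ribosomal subunit, and *Zfp91*, a ubiquitin ligase, were not called in any comparison. Of 6 genes that silence imprinted genes or retroelements 5 were members, all with a KRAB box. *Zfp568* was called between the treated genotypes, as given above, and as higher in control cells given TGF-β (0.65, SE 0.16, adjusted p = 0.0392, edgeR), a call lost in 7 of 14 alternatives. *Zfp57* and *Zfp445*, which keep the methylation of imprinted regions, *Zfp809*, which silences murine leukaemia virus, and *Zfp932* were not. *Zfp57* was at 40.5, 52.3, 50.5 and 53.3 CPM and *Zfp445* at 61.8, 66.8, 52.2 and 58.5 CPM in the group order used for *Zfp217*.

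The partners through which KRAB proteins act were measured for 23 of 24 genes, counting *Atf7ip*, which has 2 identifiers, by the one with the higher count. Between the untreated genotypes, where 1.83% of all genes were called, none of the 23 was called. Their median log2 fold change there was -0.18 with 18 of 23 below 0. *Trim28* itself, which is on chromosome 7, was at 473 and 458 CPM in untreated control cells and 357 and 373 CPM in the knockout-labelled libraries, without overlap (-0.35, SE 0.13, adjusted p = 0.238, edgeR), and *Setdb1*, on chromosome 3, was at 83.8 and 90.1 against 69.9 and 74.7 CPM (-0.27, SE 0.15, adjusted p = 0.449). After TGF-β, *Trim33* and the DNA methyltransferase *Dnmt3a* rose in both genotypes, by 0.84 (SE 0.17) and 1.04 (SE 0.22) in control cells and by 1.03 (SE 0.18) and 1.44 (SE 0.23) in the knockout-labelled libraries. *Uhrf1*, which guides maintenance methylation, fell in both, with -0.96 and -0.88 (SE 0.14 in each), and *Dnmt1* fell in the knockout-labelled libraries (-0.67, SE 0.13). *Hdac2* was lower in these than in control cells after TGF-β, at 121 and 113 against 152 and 219 CPM (-0.66, SE 0.18, adjusted p = 0.0393, edgeR). No other gene of the 23 was called in the comparisons with TGF-β. Of all genes, 9.16% were called in control cells, 6.82% in the knockout-labelled libraries and 15% between the treated genotypes. These calls were not followed through the alternatives.

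For zinc-finger genes of other names, the 30 *Zbtb* genes with a mean count of at least 50 had a median log2 fold change of 0.05 in the untreated and 0.03 in the treated comparison of the genotypes and the 11 *Zscan* and *Zkscan* genes medians of 0.00 and 0.06. *Zbtb38* and *Zbtb1* rose with TGF-β in both genotypes, *Zbtb38* from 198 and 196 to 418 and 457 CPM in control cells (1.15, SE 0.14, adjusted p = 0.00230, edgeR). *Zbtb7b* (-0.75), *Zbtb45* (-1.37) and *Zbtb7c* (-1.04) fell with TGF-β in control cells. In the knockout-labelled libraries *Zbtb4* was higher without treatment (0.84, adjusted p = 0.0344, edgeR) and after TGF-β (0.68, adjusted p = 0.0204, edgeR), and *Zbtb7c* (1.68) and *Zkscan17* (0.66) were higher after TGF-β. That these families differ from the *Zfp* genes was not tested.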

How the data were processed

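RNA from 8 NMuMG libraries, 2 in each of 4 groups, was sequenced. The authors deposited raw counts per gene, whole numbers with no normalization, for 37310 genes whose identifiers all match GENCODE vM1 on NCBIM37. The study's methods give subjunc alignment, removal of duplicate reads and DESeq2, while the submitters' processing notes name HISAT2, limma and mm10. The labels and the methods also differ on the library kit and the sequencer, and neither the tool that counted reads nor its use of strand is given in the sources used here. Removal of duplicates lowers the counts of high genes.

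Here the counts were tested with edgeR 4.0.16 (R 4.3.3): TMM factors, 13028 genes that passed the filter on low counts, 1 mean per group over all 8 libraries, and quasi-likelihood tests with Benjamini-Hochberg adjustment over all these genes, which departs from the study's DESeq2. A call needed an adjusted p under 0.05 and an absolute log2 fold change over 0.5, and the interaction the adjusted p alone. Steps were tested on simulated data. CPM are TMM-scaled, and levels per library are log2(CPM + 0.5) with a pseudocount of 0.5. Libraries held 4297832 to 13574397 counts, and a count of 0 allows up to 3 counts.

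C2H2 fingers and KRAB A boxes (within the first 350 residues) were matched in translated GENCODE coding sequences, in place of the RefSeq proteins and the shorter window first planned. GC content is that of the transcript with the longest coding sequence. Promoters are from RefSeq on GRCm38.p6. Named are up to 6 called members of largest fold change in each direction and comparison, the 5 of smallest interaction p, the 5 of highest level, the 3 on each side of the minimum count and the role lists. Other members were named after their values were seen, to complete a set of calls. The members and lists were chosen with earlier results of these data known. Alternatives were RLE factors, no filter, a replicate block, only the 4 libraries of a comparison, DESeq2 1.42.0, leaving out each library and, added after the data were seen, a GC offset and exchanged replicate numbers.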

Additional observations from a re-analysis of the deposited data

How the results depend on the processing

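With no filter on low counts, 8 members were called lower between the untreated genotypes, 22 lower and 13 higher after TGF-β in control cells, 7 lower and 8 higher in the knockout-labelled libraries, 21 lower and 12 higher between the treated genotypes, and 1, *Zfp703*, in the interaction (0.457%, beside 1.03% of all genes; in the 4 comparisons 3.65%, 16%, 6.85% and 15.1% of the members, beside 3.69%, 9.88%, 8.95% and 13.8% of all genes). With only the 4 libraries of a comparison the counts were 10 lower and 1 higher, 1 and 2, 3 lower and 5 higher in the knockout-labelled libraries, and 1 and 1 (5.02%, 1.37%, 3.65% and 0.913%, beside 6.48%, 3.74%, 7.47% and 3.21%). DESeq2 called 2 lower between the untreated genotypes and 6 higher after TGF-β in the knockout-labelled libraries (0.913% and, with 6 lower, 5.48%, beside 3.29% and 9.53% of all genes). The GC offset called 10 higher there (7.31% in all, beside 10.1%) and put the median of the members between the untreated genotypes at -0.090. Leaving out single libraries gave 0 to 2 lower and 0 to 0 higher with medians of -0.29 to -0.091 between the untreated genotypes, 0 to 12 lower and 0 to 9 higher with medians of -0.19 to 0.16 after TGF-β in control cells, 0 to 7 and 1 to 7 with -0.11 to 0.093 in the knockout-labelled libraries, 2 to 29 and 1 to 14 with -0.36 to 0.018 between the treated genotypes, and 0 to 0 in the interaction. Calls over all genes then ran from 0.305% to 2.93%, from 1.05% to 11.1%, from 0.995% to 10.4%, from 3.57% to 20.7% and, in the interaction, from 0% to 0.0451%. The causes were not tested beyond what each alternative changes. For the up to 6 called members of largest fold change in each direction and comparison, 448 values were read under the alternatives. Of these, 292 kept their call, 156 kept only the direction and 0 reversed.

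With the replicate number as a block, 6 members were called lower and 4 higher in control cells given TGF-β, and 7 lower and 4 higher between the treated genotypes (4.57% and 5.02%, beside 6.38% and 11.4% of all genes). The numbers are not shown to pair the libraries: over all genes, same-numbered libraries deviated together with r = 0.10, 0.30, -0.01 and -0.47 in the 4 comparisons, and over the members with r = 0.16, 0.58, 0.03 and -0.73, each over 2 pairs. An exchange of these numbers within the treated knockout-labelled group gave 21 lower and 11 higher (14.6%, beside 21.6%).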

Other observations

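Of 128 *Zfp* genes below the mean count of 50, 24 had no count and 72 passed the filter. Their median log2 fold changes were -0.22 between the untreated genotypes, -0.30 between the treated ones, and -0.42 and -0.68 after TGF-β in control cells and in the knockout-labelled libraries. After TGF-β in control cells *Zfp956* (-1.89, adjusted p = 0.0426), *Zfp94* (-1.67, adjusted p = 0.0243) and *Zfp689* (-1.66, adjusted p = 0.0339, edgeR) were called lower. *Zfp956* was called in the knockout-labelled libraries as well (-1.84, adjusted p = 0.0484, edgeR). *Zfp382*, just under the minimum, was at 7.87 and 7.09 CPM in treated control cells and 2.69 and 3.34 CPM in the treated knockout-labelled libraries (-1.31, adjusted p = 0.0301, edgeR), with the same order without treatment, 8.44 and 7.08 against 1.98 and 3.32 CPM (-1.501, adjusted p = 0.0831). *Zfp37* was at 1.31 and 1.27 CPM in treated control cells and at 0.163 and 0 CPM in the treated knockout-labelled libraries, which is at or under the level that 3 counts give, so no fold is stated. These genes were named after their values were seen.

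Replicates of a group differed in the median of the members by more than in that of all tested genes. Members higher in replicate 2 than in replicate 1 numbered 150 of 219 in untreated control cells (median log2 difference 0.14, against -0.01 for all tested genes), 143 in treated control cells (0.29, against -0.01), 139 in the untreated knockout-labelled libraries (0.08, against 0.02) and 73 in the treated ones (-0.15, against -0.00).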
